A study of Mus musculus with 3 samples.

Results

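The genes described here encode the proteins of the cytosolic ribosome, measured in mouse liver by mRNA sequencing. They were taken by symbol: Rps or Rpl followed by a number and at most 1 letter, together with Rplp0, Rplp1, Rplp2 and Rpsa. Of 23361 gene symbols in the files, 80 met this rule. An FPKM (fragments scaled by transcript length and by the number mapped in the library) of at least 1 in at least 1 library was reached by 77 of them, among 10792 genes that reached it in all. The 77 comprise 31 genes of the small subunit and 46 of the large subunit. The 3 symbols below the limit were Rpl10l, listed at an FPKM of 0 in each library, Rpl3l, at 0.04 to 0.10, and Rpl39l, at 0 to 0.15. All 3 are paralogs known for expression restricted to other tissues.

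The study asked how liver gene expression responds to ischemia and then to reperfusion, with 1 library for each of 3 groups of 6 mice. All mice are labelled as male C57BL/6J animals of 8 to 10 weeks. They were fasted for 12 h, anaesthetized with chloral hydrate and opened by a midline laparotomy. The sham group had no occlusion and was kept for 90 min. The warm ischemia (WI) group had the vessels and bile duct of the left and median lobes, about 70% of the liver, clamped for 90 min. The group with ischemia and then reperfusion (IR) had the same 90 min clamp and then 120 min of restored flow. No sham group was kept as long as the IR group, so reperfusion and added time after surgery cannot be told apart. It is not stated if RNA of several mice was pooled for a library. With 1 library per group no difference below has a replicate check, no test was made, and no p-value is given. The 95% bounds quoted with an FPKM come from the authors' model of fragment counts and do not cover variation between mice.

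Several features of the libraries bear on the comparisons. Xist, transcribed from the inactive X chromosome, stood at 18.9 FPKM in the sham library and 20.1 in the WI library but at 1.29 in the IR library, whereas the Y-linked Eif2s3y was listed at 0, 0 and 13.2. The sham and WI libraries thus went against their male label on these genes and the IR library did not. With 1 library per group, no comparison with the IR library can be made without these libraries. In each such comparison this difference in sex-linked genes therefore cannot be told apart from reperfusion. The FPKM of all genes summed to 475754 in the sham, 487912 in the WI and 712423 in the IR library, and 20 major urinary protein (Mup) genes held 2.33%, 2.11% and 12.6% of these sums. Of 10 hepatocyte markers 9 passed the limit, with a summed FPKM of 25938 in the sham, 22059 in the WI and 32841 in the IR library. Alb, the exception, was listed at 0 in each library because its locus held too many fragments for the software. The hepatocyte sum rests mainly on a few genes, such as Ahsg at 6933, 6449 and 8468 FPKM with a lower bound of 0 in each library. From WI to IR 8 of the 9 were higher as deposited, where 52.4% of all genes were, and Cps1 (811.4 to 677.2 FPKM) was lower. The neutrophil list (11 markers, 7 passing) summed to 26.0, 19.6 and 470.8 FPKM, with S100a8 at 13.6, 9.17 and 211.7. All 7 were at least 2-fold higher in the IR than in the WI library, against 5.78% of all genes, but Cxcr2, Mmp8 and Ngp passed the limit only through the IR library. Of that list, Mpo, Elane and Camp stayed below the limit and Ly6g was not found. The erythroid list (5 of 9 passing) summed to 751.1, 518.1 and 1975.8 FPKM and the Kupffer cell list (8 of 9) to 497.1, 254.4 and 165.0. From WI to IR 6 of these 8 Kupffer cell markers were lower, where 47.5% of all genes were. Marco (12.6 to 25.3 FPKM) and Cd68 (12.3 to 18.5) were higher. The lymphocyte list (5 of 12) summed to 15.5, 13.0 and 7.64, the endothelial list (8 of 8) to 143.0, 105.1 and 111.6 (without Lyve1 to 131.8, 102.4 and 78.2), the stellate list (7 of 7) to 149.3, 108.5 and 112.8, and the cholangiocyte list (4 of 5) to 54.3, 62.0 and 93.6. Each of these sums takes in all markers of its list that were found, also those below the limit. The part of these differences in the results on ribosomal protein genes was not tested. In bulk tissue, fewer cells of a type and less RNA per cell cannot be told apart.

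A ribosome is built from ribosomal RNA and one copy of nearly every ribosomal protein, so cells make these proteins in closely matched amounts. In mammals their mRNAs are short and abundant, and most begin with a 5′ terminal oligopyrimidine (5′ TOP) tract, a C followed by a run of C and T. Through this tract, mTOR signalling and the RNA-binding protein Larp1 set how much of the mRNA is translated, which need not alter how much of it is present. The liver is a large producer of secreted protein and holds many ribosomes.

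To show this tract, 10 start sites are printed, picked after their sequences had been seen, 7 with a tract at the first transcribed base and 3 without one in the first 5 bases. Each run holds 30 bases before the RefSeq transcription start and 20 bases from it, on the gene's strand and in the GRCm38.p6 assembly. Capitals mark the pyrimidine tract.
Rps6: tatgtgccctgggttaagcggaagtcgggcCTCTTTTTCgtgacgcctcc
Rps18: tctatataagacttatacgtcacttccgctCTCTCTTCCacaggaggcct
Rps10: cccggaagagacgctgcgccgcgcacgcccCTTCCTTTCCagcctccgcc
Rpl15: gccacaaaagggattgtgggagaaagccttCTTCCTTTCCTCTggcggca
Rpl28: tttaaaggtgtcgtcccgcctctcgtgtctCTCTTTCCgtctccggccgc
Rplp2: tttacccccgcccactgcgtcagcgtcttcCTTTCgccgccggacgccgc
Rpl38: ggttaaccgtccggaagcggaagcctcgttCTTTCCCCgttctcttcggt
Rpl26: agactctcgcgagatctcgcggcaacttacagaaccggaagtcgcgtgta
Rpl22: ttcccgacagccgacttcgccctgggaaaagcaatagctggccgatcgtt
Rpl5: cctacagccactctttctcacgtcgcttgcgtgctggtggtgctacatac

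These windows lie at chr4:86857348-86857397 (Rps6), chr17:33955646-33955695 (Rps18), chr17:27635225-27635274 (Rps10) and chr14:18270967-18271016 (Rpl15) on the minus strand. On the plus strand they lie at chr7:4792935-4792984 (Rpl28), chr7:141447621-141447670 (Rplp2), chr11:114668550-114668599 (Rpl38), chr11:68901536-68901585 (Rpl26), chr4:152325696-152325745 (Rpl22) and chr5:107900498-107900547 (Rpl5). The tract was 9 bases long in Rps6 and Rps18, 10 in Rps10, 13 in Rpl15, 8 in Rpl28 and Rpl38 and 5 in Rplp2. Start sites were found for 57 of the 77 genes. A C within the first 5 transcribed bases followed by at least 4 bases that are each C or T was present in 22 of the 57 (38.6%), against 11.6% of all 27025 genes in the same reference table. With the C allowed anywhere in the first 10 bases, a search added after seeing the data, the counts were 28 of 57 (49.1%) and 19.4%. The core letters of ETS-family binding sites, CCGGAA on either strand, occurred within the 300 bases around the start of 32 of the 57 genes (56.1%), against 16.7% of all genes. A match of letters is a description of the reference sequence and not a measured site.

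The ribosomal protein genes were among the most abundant mRNAs of each library. Their median level was 312.0 FPKM in the sham library, 317.1 in the WI library and 466.4 in the IR library, where the median of all genes passing the limit was 6.05, 6.06 and 6.33. The median ribosomal protein gene lay above 97.7%, 97.6% and 97.9% of those genes. In each library 71 of the 77 genes reached 100 FPKM, and the middle 50% of them ran from 220.1 to 399.9 FPKM in the sham, 223.2 to 418.5 in the WI and 316.1 to 599.2 in the IR library. Since FPKM is corrected for length, levels can be set side by side between genes, although the products of most of these genes enter the ribosome one for one.

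The 5 highest genes in the sham library were Rpl41, Rplp1, Rps2, Rps18 and Rps29. Rpl41, which encodes one of the shortest proteins known, measured 999.5 FPKM in the sham library (bounds 459.3 to 1539.7), 983.3 in the WI library (453.2 to 1513.4) and 1349.5 in the IR library (585.3 to 2113.8). Rplp1, a protein of the acidic stalk that recruits elongation factors, measured 910.2 FPKM in the sham (427.8 to 1392.7), 939.4 in the WI (438.5 to 1440.3) and 1534.3 in the IR library (653.5 to 2415.1), and was the highest of the 77 only in the IR library. The level of Rps2, at the mRNA entry side of the small subunit, was 647.4, 698.0 and 1009.7 FPKM, that of Rps18 was 620.7, 593.3 and 828.4, and that of Rps29 was 614.4, 645.8 and 841.8, in the order sham, WI and IR. These neighbours in the order lay far inside each other's bounds, so their ranks are not separated by the data. At the low end stood Rps27, Rpl34, Rpl26, Rpl30, Rps15a and Rpl22, all under 100 FPKM in each library. The order of levels was alike between libraries, with a Spearman correlation over the 77 genes of 0.989 between sham and WI, 0.986 between WI and IR and 0.979 between sham and IR. This is a description over genes that share libraries and gene models, and the genes are not independent replicates.

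**Figure D1:**
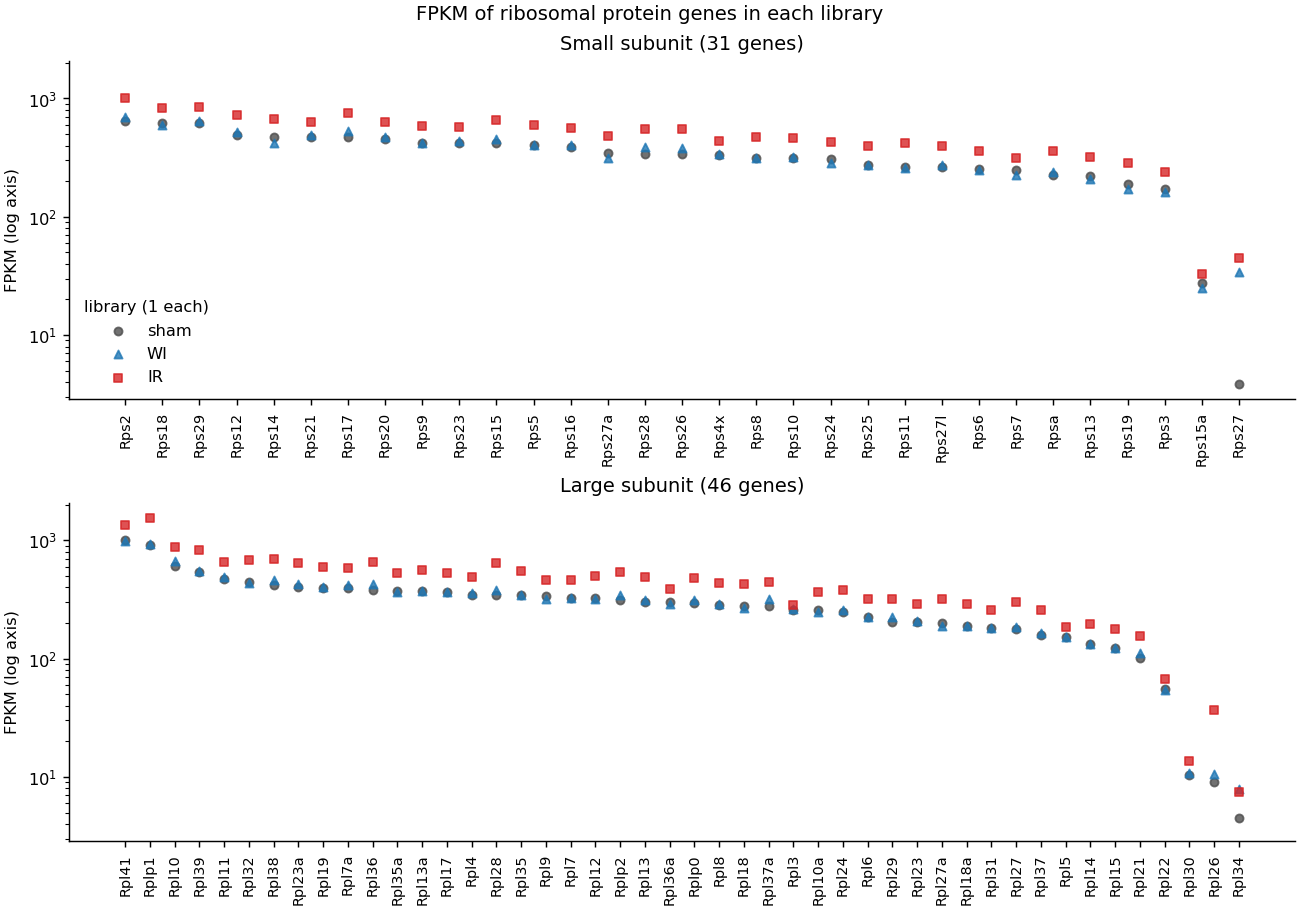
FPKM on a log axis of each of the 31 small subunit genes (top) and 46 large subunit genes (bottom), ordered by the sham library, with a circle for the sham, a triangle for the WI and a square for the IR library (1 library each, no error bars). Circles and triangles nearly coincide for most genes, squares lie above them, and 6 genes fall below 100 FPKM.

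In sum the ribosomal protein genes held 5.21% of all FPKM in the sham library, 5.20% in the WI library and 5.18% in the IR library. Their summed FPKM was 24773, 25372 and 36896. The IR to WI ratio of this sum was 1.45, where the same ratio for the FPKM of all genes was 1.46. Without the Mup genes the shares were 5.33%, 5.31% and 5.92%, and without the 17 genes that were among the 10 highest of any library they were 6.23%, 6.20% and 7.16%. The share in the IR library was thus close to that of the others over all listed FPKM, and above them once a few very abundant mRNAs were set aside. Alb in each library and 6 of the Mup genes in the IR library only were listed at 0 because their loci held too many fragments, so these sums, and the TPM computed from them, miss some very abundant mRNAs unequally.

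Changes are given as differences of log2(FPKM + 1), a scale that understates the change of low genes. After 90 min of warm ischemia the ribosomal protein genes stood where they were in the sham library. The median change from sham to WI was 0.02, with the middle 50% of genes between -0.02 and 0.08, beside a median of 0.02 over all genes. Of the 77 genes, 73 differed by less than 0.2, 50 were higher and 27 lower, where 52.5% of all genes were higher. Rescaling the libraries to a common sum (TPM) gave 35 higher and 42 lower, and scaling by the median ratio gave 34 and 43, so no direction can be given. A change of at least 2-fold was seen in 1 gene, Rps27, against a background of 1.85% of all genes, and no gene was 2-fold lower (1.1% of all genes). At 1.5-fold 2 genes, Rps27 and Rpl34, were higher, against 3.14% of all genes. None of the 77 had bounds that did not overlap, where 0.676% of all genes did. Bounds this wide could not part at changes as small as those of most members.

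The largest differences between WI and sham outside the genes with a shared locus, described below, were small. Rpl37a measured 275.9 FPKM in the sham and 317.7 in the WI library (change 0.20), Rps28 measured 340.3 and 388.4 (0.19), and Rpl36 measured 377.4 and 430.3 (0.19). Among the lower genes, Rps14 measured 475.9 and 418.5 FPKM (-0.18) and Rps27a, whose product is made as a fusion with ubiquitin, 348.8 and 315.9 (-0.14). Rps19, a gene often mutated in inherited Diamond-Blackfan anemia, measured 189.2 and 172.2 (-0.13), Rps7 248.0 and 227.4 (-0.12), and Rps15a 27.3 and 25.1 (-0.12). Each of these pairs lay well within the bounds of its 2 values.

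In deposited FPKM the ribosomal protein genes were higher in the IR library than in the WI library as a block. The median change was 0.53, or 1.45-fold, beside a median of 0.03 over all genes, and the middle 50% of the genes lay between 0.47 and 0.61. Of the 77 genes, 76 were higher and 1, Rpl34, was lower, where 52.4% of all genes were higher, and 73 of the 77 changes fell between 0.3 and 0.8. As deposited 25 genes were at least 1.5-fold higher, against 12.4% of all genes, but 1 was in TPM, against 6.04%, and 15 were after median-ratio scaling, against 11.4%. As deposited 1 gene, Rpl26, passed 2-fold, against 7.21% of all genes in either direction. None was 2-fold lower, against 1.43% of all genes. No gene of the 77 had bounds that did not overlap between the libraries, where 3.61% of all genes did. The bounds are too wide to part at a change near 1.45-fold, so this count says little about the members.

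The size of this shift depends on how the libraries are scaled. After rescaling to a common sum (TPM), the median of all genes moved to -0.45 and that of the ribosomal protein genes to -0.01, with 37 genes higher and 40 lower, where 17.5% of all genes were higher. Scaling by the median ratio over genes left the ribosomal protein genes at 0.49, with 76 higher and 1 lower, where 49.0% of all genes were higher. Relative to the median of all genes, the ribosomal protein genes stood higher by 0.50 as deposited, by 0.44 in TPM and by 0.50 after median-ratio scaling. Since each scaling multiplies a library by a single factor, it can alter this distance only through the pseudocount, and the 3 values are no separate checks of it. The absolute direction from WI to IR rests on the scaling. Set against genes of at least 10 FPKM in a library, the excess was 0.40 from WI to IR and 0.33 from sham to IR. Against the 829 other genes of at least 100 FPKM in a library, whose medians were 0.25 and 0.40, it was 0.28 and 0.17, and from sham to WI it was -0.12. This comparator was chosen after seeing the data. Both sets admit genes that reach their limit only in the IR library, which can raise their medians in comparisons with that library. The summed neutrophil markers went from 19.6 to 470.8 FPKM and the Mup genes from 2.11% to 12.6% of the sum in the same comparison, and their part in it was not tested.

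Outside the shared loci the widest changes from WI to IR were those of Rpl27a, Rpl28 and Rps19. Rpl27a measured 201.5 FPKM in the sham, 186.9 in the WI and 318.4 in the IR library, a change of 0.77 from WI to IR. Rpl28 measured 345.1 in the sham (bounds 177.5 to 512.6), 378.4 in the WI (192.4 to 564.4) and 638.1 in the IR library (305.0 to 971.1), a change of 0.75. Rps19 went from 172.2 in the WI to 287.4 in the IR library, a change of 0.74, and was the widest of the small subunit. In all 3 genes the IR library was the highest, the sham and WI libraries lay close together, and the bounds overlapped.

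Outside the shared loci the narrowest change belonged to Rpl3, which lies near the peptidyl transferase centre and measured 258.3 FPKM in the sham, 262.2 in the WI and 285.2 in the IR library, a change of 0.12 from WI to IR. Its rank among the 77 genes went from 50 in the WI library to 64 in the IR library. Rpl5, which with Rpl11 can bind and restrain the ubiquitin ligase Mdm2, measured 152.9, 151.9 and 185.2 FPKM (0.28 from WI to IR), and Rpl11 measured 471.3, 487.9 and 658.2 (0.43). Rpl22 measured 55.6, 54.5 and 67.4 FPKM (0.30). The printed start sites without a tract were those of Rpl5, Rpl22 and Rpl26. The printed Rpl22 window lies wholly before the start of its deposited locus (chr4:152325878), so its bases need not be those of the mRNA measured. Rpl26, described below, changed by 1.71 alone and by 0.52 with both records of its locus summed. A link between tract and change was not tested. Rps6, the substrate that gave S6 kinase its name and whose start site carries a 9-base tract, measured 251.0, 250.1 and 358.8 FPKM (0.52).

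Against the sham library the IR library gave nearly the same picture, and the comparison shares the IR library with the one above. The median change was 0.57, or 1.48-fold, beside 0.05 over all genes, and all 77 genes were higher, where 54.4% of all genes were. In TPM the median was again -0.01, with 37 higher and 40 lower, where 18.2% of all genes were higher. Relative to all genes the median was 0.52 as deposited and 0.44 in TPM. Of the 77, 35 were at least 1.5-fold higher as deposited (14.3% of all genes), 2 in TPM (5.34%) and 18 after median-ratio scaling (11.6%). As deposited 2 passed 2-fold, Rps27 and Rpl26 (7.5% of all genes in either direction and 5.35% higher). None was 2-fold lower (2.15% of all genes), and none had bounds apart (3.82% of all genes). The bounds are again too wide to part at a change near the median. Beyond Rps27 and Rpl26, the highest were Rpl28 at 0.88, Rplp2 at 0.80 and Rpl36 at 0.79. The lowest were Rpl3 at 0.14, Rps15a at 0.24, Rpl22 and Rpl5 at 0.27 and Rps7 at 0.34.

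**Figure D2:**
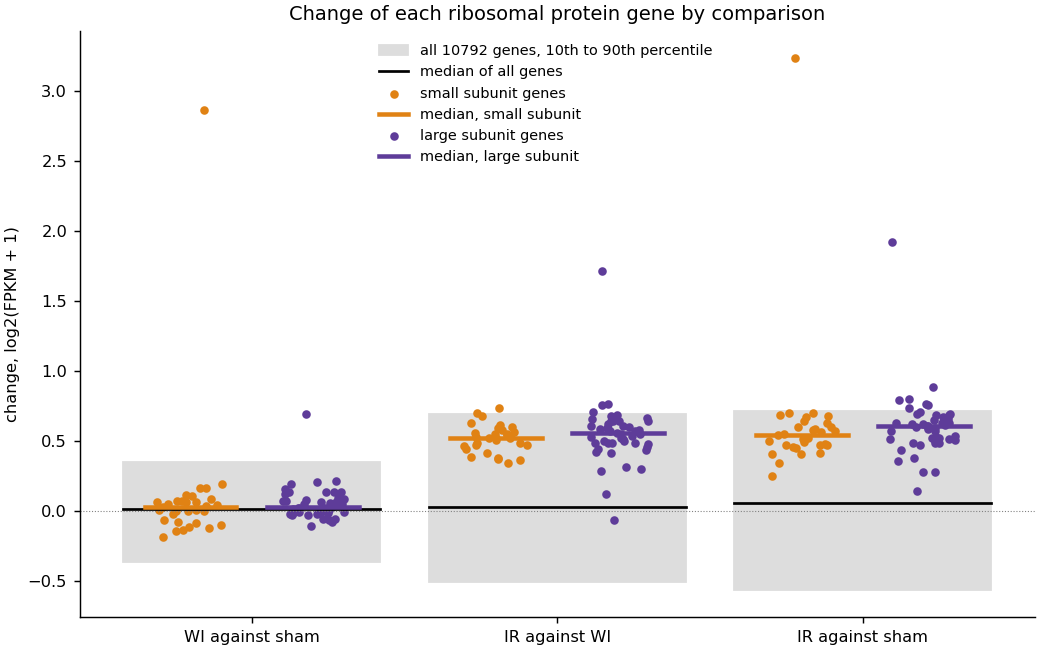
Change in log2(FPKM + 1) of each small subunit gene (31 points) and large subunit gene (46 points) in the 3 comparisons, with coloured bars at the subunit medians, a black line at the median of all 10792 genes and a grey box from their 10th to their 90th percentile. The points gather near 0 from sham to WI and near 0.5 in both comparisons with the IR library, mostly inside the grey box.

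The subunits had similar medians. From WI to IR the median change was 0.52 for the 31 small subunit genes (middle 50% from 0.47 to 0.57) and 0.56 for the 46 large subunit genes (0.48 to 0.63), a difference of -0.04. It was 0.02 for both from sham to WI, and 0.54 against 0.60 from sham to IR, a difference of -0.06. The summed FPKM of small over large subunit genes was 0.764 in the sham, 0.759 in the WI and 0.736 in the IR library. The median levels were 337.9 FPKM for the small and 298.1 for the large subunit in the sham library, 338.9 and 312.4 in the WI library and 484.0 and 453.1 in the IR library. Whether the subunits differ was not tested.

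The 3 stalk proteins, which enter the ribosome as 1 copy of Rplp0 with pairs of Rplp1 and Rplp2, were toward the top of the range. Rplp0 measured 295.2 FPKM in the sham (bounds 131.6 to 458.8), 309.8 in the WI (136.4 to 483.3) and 483.0 in the IR library (193.0 to 773.1). Rplp2 measured 311.5 (164.3 to 458.6), 347.1 (181.8 to 512.4) and 542.5 (274.2 to 810.9). From WI to IR the changes were 0.64 for Rplp0, 0.64 for Rplp2 and 0.71 for Rplp1. Their proportions hardly moved, with Rplp1 at 3.08, 3.03 and 3.18 times Rplp0 and Rplp2 at 1.05, 1.12 and 1.12 times Rplp0 in the sham, WI and IR libraries. Rpsa, a small subunit protein also known as a laminin receptor, measured 226.3, 237.9 and 359.9 FPKM, a change of 0.07 from sham to WI and 0.60 from WI to IR.

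Because the libraries differ in Xist and Y-linked genes, the 4 X-linked members were taken apart from the 73 autosomal ones. Rpl10, which joins the large subunit late and is needed for it to become active, measured 610.9 FPKM in the sham, 665.5 in the WI and 884.9 in the IR library. Rpl39, in the wall of the exit tunnel, measured 544.0, 548.7 and 825.4. Rps4x measured 329.9, 338.9 and 437.4, and Rpl36a 301.1, 286.8 and 384.5. All 4 were higher in the IR library, with changes from WI of 0.41, 0.59, 0.37 and 0.42. Their median change from WI to IR was 0.42, against 0.54 for the autosomal members and -0.05 for all 284 X-linked genes that passed the limit. From sham to WI the X-linked median was 0.03 and the autosomal 0.02. The part of library sex in these values was not tested, and in comparisons with the IR library it cannot be told apart from that of reperfusion.

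Paralogs within the family behaved differently in how well they could be measured. Rps27l, a paralog of Rps27 known as a target of p53, measured 262.2 FPKM in the sham, 273.4 in the WI and 393.8 in the IR library, a change of 0.52 from WI to IR that lies at the family median. Its bounds were 138.2 to 386.3, 143.8 to 403.1 and 201.7 to 586.0. Rps27 itself was listed at 3.85 FPKM in the sham (bounds 0 to 46.4), 34.3 in the WI (0 to 120.7) and 44.7 in the IR library (0 to 179.2). Its change of 2.86 from sham to WI was the widest of the 77, and each lower bound was 0.

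Rps27 was 1 of 4 genes whose locus carries a second record with the same coordinates and a higher FPKM in each library. At chr3:90212667-90213648 (mm10, as in the files) the record Gm9846 measured 719.3, 626.6 and 907.2 FPKM beside Rps27. Summed over both records the locus gave 723.1 FPKM in the sham, 660.8 in the WI and 951.9 in the IR library, and the change from sham to WI was -0.13 in place of 2.86. From WI to IR it was 0.53.

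Rpl26, of the large subunit, shares chr11:68901566-68904534 with Gm15772. Rpl26 alone was listed at 9.03 FPKM in the sham (bounds 0 to 80.7), 10.6 in the WI (0 to 80.9) and 37.0 in the IR library (0 to 147.7), a change of 1.71 from WI to IR. Gm15772 measured 549.7, 540.6 and 752.1, and the sum of both was 558.7, 551.2 and 789.0, a change of 0.52. Rpl34 at chr3:130726831-130730329 was listed at 4.51, 7.91 and 7.49 FPKM, beside 422.2, 369.3 and 509.2 for the record Rpl34-ps1. Its change was 0.69 from sham to WI and -0.07 from WI to IR alone, but -0.18 and 0.45 for the sum. Rpl30 at chr15:34440506-34443276 was listed at 10.3, 10.8 and 13.7, beside 352.8, 379.0 and 522.4 for Gm12191, and its change from WI to IR was 0.31 alone and 0.46 for the sum.

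All 4 cases in which a ribosomal protein gene passed 2-fold in a comparison therefore came from Rps27 or Rpl26. With each of the 4 genes taken as the sum of its locus, a choice made after seeing the data, none of the 77 passed 2-fold in any comparison. Without these 4 genes the changes of the other 73 ran from -0.18 to 0.20 from sham to WI, with an SD over genes of 0.084, and from 0.12 to 0.77 from WI to IR, with an SD of 0.11. Rps15 also had a lower bound of 0 in each library while measuring 421.9, 455.7 and 652.8 FPKM, with a change of 0.52 from WI to IR.

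**Figure D3:**
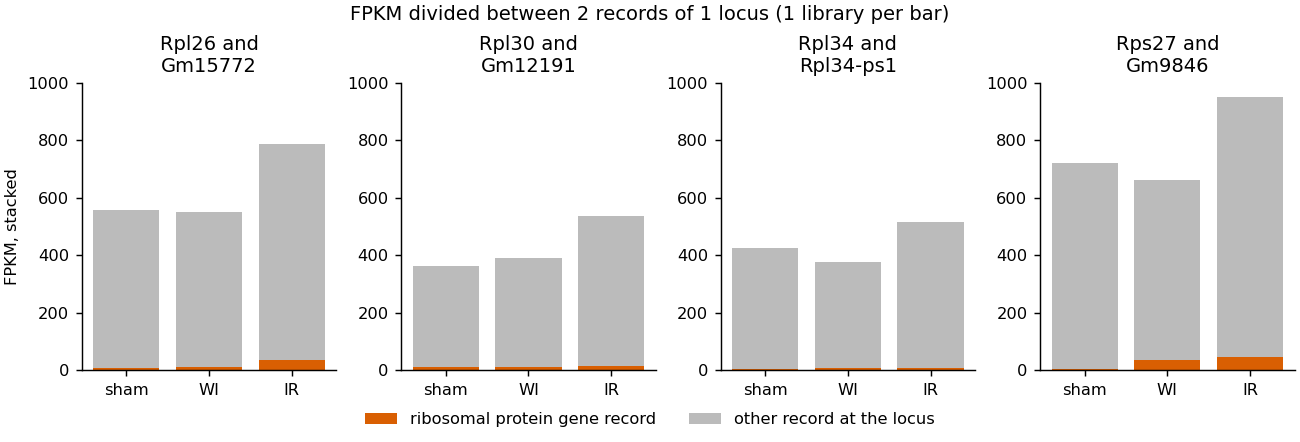
FPKM in the sham, WI and IR libraries (1 per bar) of the 4 ribosomal protein genes Rpl26, Rpl30, Rpl34 and Rps27 in orange, stacked under the FPKM of the other record at the same locus in grey. The orange part is a thin strip of each bar, and the whole bar is highest in the IR library at all 4 loci.

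Ribosomal protein mRNAs are short, and the change from WI to IR varied with transcript length across all genes, so the members were set beside other genes of like length. Lengths came from an older annotation joined by symbol, for 76 of the 77 genes. Among genes of 500 to 1000 bases, the median change from WI to IR was 0.55 for 47 members, 0.19 for 1430 other genes and 0.38 for the 245 of those others with at least 100 FPKM in a library. Under 500 bases it was 0.52 for 13 members, 0.43 for 100 others and 0.51 for the 30 abundant others. From 1000 to 2000 bases it was 0.50 for 15 members, 0.10 for 2965 others and 0.20 for the 335 abundant others. The only member placed at 2000 bases and over was Rps20, whose joined length of 3706 bases exceeds its locus of 1128 bases in the files and so cannot be right, and its class is not used. From WI to IR the abundant others were thus close to the members under 500 bases and lower in both longer classes.

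From sham to IR the picture was not the same. The median change was 0.70 for members, 0.51 for others and 0.65 for abundant others under 500 bases, 0.57, 0.31 and 0.54 from 500 to 1000 bases, and 0.52, 0.18 and 0.37 from 1000 to 2000 bases. In the class that holds most members, the abundant others were therefore nearly level with them. In both comparisons a gene could count as abundant through the IR library alone, which can raise these medians. The members themselves went lower with length in this comparison, with a Spearman correlation over 76 genes (Rps20 included) of -0.30, and of -0.31 from sham to WI and -0.08 from WI to IR. These are descriptions over genes that share the same libraries.

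**Figure D4:**
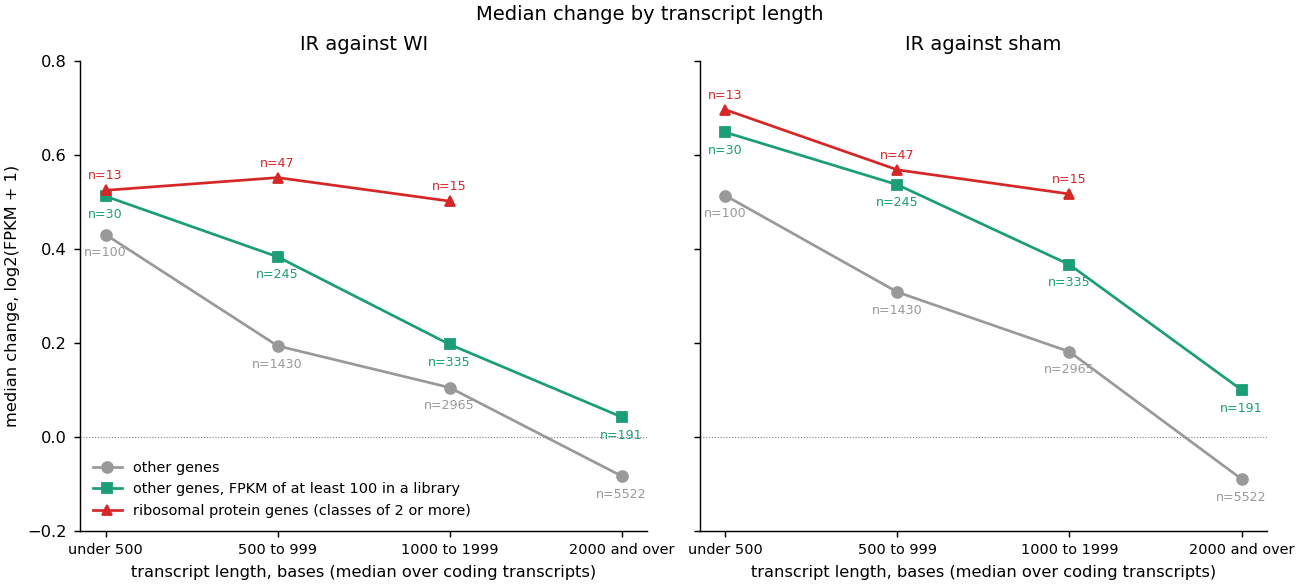
Median change in log2(FPKM + 1) from WI to IR (left) and from sham to IR (right) by class of transcript length in bases, for ribosomal protein genes (triangles), other genes (circles) and other genes with at least 100 FPKM in a library (squares), with the number of genes beside each point. The triangles lie between 0.50 and 0.55 on the left and go from 0.70 to 0.52 on the right, and the squares come within 0.1 of them under 500 bases on both sides and at 500 to 1000 bases on the right.

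Ribosomal protein genes and related genes whose symbols fall outside the rule followed the same course. Of 10 such symbols listed, 9 were found and passed the limit, and Rack1, not found, is another name of Gnb2l1. Not all of them encode ribosomal proteins. Rps19bp1 (5.69, 6.83 and 12.1 FPKM in the sham, WI and IR libraries) encodes a binding partner of Rps19. Rpl7l1 (16.1, 17.8 and 20.8) and Rsl24d1 (12.4, 13.1 and 19.2) are known for ribosome assembly. All 9 were higher in each comparison in deposited FPKM, where 52.4% to 54.4% of all genes were. The medians were 0.07 from sham to WI and 0.52 from WI to IR. In TPM 4 of the 9 were higher and 5 lower from WI to IR, where 17.5% of all genes were higher. Fau, whose product carries a ubiquitin-like domain ahead of a small subunit protein, measured 446.4 FPKM in the sham, 463.2 in the WI and 668.6 in the IR library. Gnb2l1, the scaffold protein of the small subunit head, measured 267.1, 272.2 and 398.3.

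Elongation and initiation factors and other mRNAs known for a 5′ TOP tract, 24 in all, had a median change of -0.10 from sham to WI and 0.42 from WI to IR. From WI to IR 21 were higher and 3 lower as deposited, where 52.4% of all genes were higher. None passed 2-fold in FPKM + 1, against 7.21% of all genes in either direction. In TPM 7 were higher and 17 lower, where 17.5% of all genes were higher. Relative to all genes the median was 0.40 as deposited and 0.34 in TPM. Eef1a1, which brings aminoacyl-tRNA to the ribosome, measured 2195.9, 2294.8 and 2805.2 FPKM (0.29 from WI to IR). Eef2, the translocation factor, measured 481.5, 475.9 and 594.2 (0.32), and Tpt1, a small and very abundant TOP mRNA, 1143.0, 1163.2 and 1957.4 (0.75). Eif2s3x, an X-linked subunit of the initiator tRNA carrier, was lower in the IR library, at 38.6, 40.3 and 31.6 FPKM (-0.34).

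Genes of ribosome biogenesis, which act in transcribing and processing rRNA and assembling the subunits in the nucleolus, were also measured. Of 67 listed genes 64 passed the limit, with a median change of -0.05 from sham to WI and 0.56 from WI to IR. From WI to IR 59 were higher and 5 lower, where 52.4% of all genes were higher. At least 2-fold higher were 19, against 5.78% of all genes. Rrp1b, among these 19, at 0.72, 0.71 and 3.1 FPKM in the sham, WI and IR libraries, passed the limit only through the IR library. So did Polr1e, among the 59, at 0.88, 0.77 and 1.35 FPKM. In TPM 39 were higher and 25 lower, where 17.5% of all genes were higher, and 6 passed 2-fold, beside 3.57%. The median relative to all genes was 0.54 as deposited and 0.56 in TPM. Whether this list differs from the ribosomal protein genes was not tested.

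The widest change was that of Nop58, a core protein of box C/D small nucleolar particles, at 7.31 FPKM in the sham, 7.02 in the WI and 32.6 in the IR library (2.07 from WI to IR). Its bounds were 3.55 to 10.5 in the WI and 17.3 to 47.8 in the IR library and did not overlap. Gnl3, the nucleolar GTPase nucleostemin, measured 8.80, 9.70 and 31.6 FPKM (1.61), and Rrp12, needed for export of the subunits, 1.59, 1.22 and 5.89 (1.64). Heatr1, a pre-rRNA processing factor, measured 2.51, 2.23 and 8.50 (1.56), and Eif6, which keeps the large subunit from joining too early, 24.7, 31.2 and 72.4 (1.19). Some nucleolar genes stayed near their WI level: Ncl (nucleolin) measured 21.7, 19.7 and 22.3 FPKM, and Ubtf, a transcription factor of RNA polymerase I, 8.44, 8.73 and 8.00.

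Known regulators of ribosomal protein synthesis and of translation, 24 of 25 passing, had no common direction from WI to IR. As deposited 11 were higher and 13 lower, with a median of -0.08, and in TPM 6 were higher and 18 lower. Of all genes 52.4% were higher as deposited and 17.5% in TPM. At least 2-fold, 3 were higher (Myc, Ddit4 and Eif4ebp1) and 1 lower (Deptor) as deposited, where 5.78% of all genes were higher and 1.43% lower. In TPM 2 were higher and 4 lower, where 3.57% and 11.0% of all genes were. Myc, a transcriptional activator of ribosome genes, measured 7.42 FPKM in the sham, 2.03 in the WI and 14.5 in the IR library, a change of -1.47 from sham to WI and 2.35 from WI to IR. Ddit4, an inhibitor of mTOR complex activity induced by stress, measured 26.9, 3.22 and 18.8 (-2.72 and 2.23). Eif4ebp1, which holds back the cap-binding protein, measured 34.1, 32.4 and 68.4 (-0.07 and 1.05), and Eif4e, that cap-binding protein, 14.8, 14.6 and 25.2 (-0.03 and 0.75). Deptor, a binding partner and inhibitor of mTOR, was lower in the IR library, at 19.5, 23.5 and 9.22 (0.25 and -1.26). Mtor measured 6.03, 5.29 and 4.22 FPKM and Larp1 16.3, 16.7 and 14.8.

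**Figure D5:**
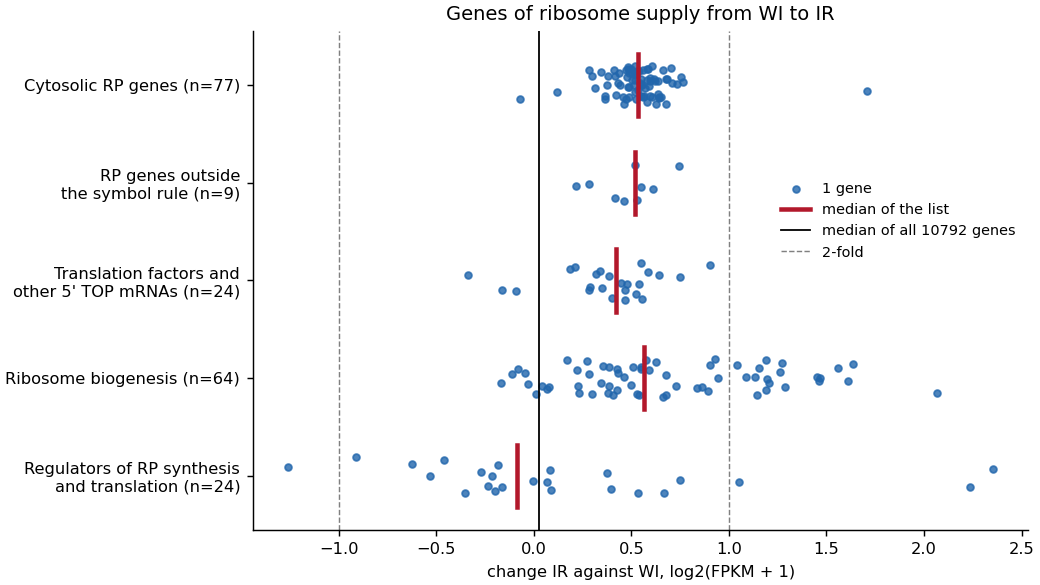
Change in log2(FPKM + 1) from WI to IR of each gene (1 point) in 5 gene lists, with a red bar at the median of each list, a black line at the median of all 10792 genes and dashed lines at 2-fold. The 77 ribosomal protein genes gather between 0.3 and 0.8, the 64 biogenesis genes spread from -0.17 to 2.07, and the 24 regulators lie on both sides of 0.

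The ribosomes of mitochondria use another set of proteins, encoded in the nucleus, and 76 of their genes passed the limit. Their median level was 17.8 FPKM in the sham, 20.5 in the WI and 23.7 in the IR library. Their median change was 0.15 from sham to WI, with 66 of 76 higher, where 52.5% of all genes were. From WI to IR it was 0.27, with 70 of 76 higher as deposited (52.4% of all genes) and 8 of 76 in TPM (17.5%). Relative to all genes the 2 medians were 0.14 and 0.24, where the cytosolic genes gave 0.01 and 0.50. The difference between the families was not tested.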

How the data were processed

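Liver mRNA of 3 libraries (sham, WI and IR) was analysed. Per the labels and the study's methods, the authors mapped reads to mm10 with TopHat2 2.0.9 and computed gene expression with the Cufflinks 2.0.2 package. The deposited values are FPKM per gene, with 95% bounds and a status. No counts are given in them, so the number of fragments behind a value is unknown. The study does report aligned read pairs per mRNA library, and these were fewest, and the lowest share of all pairs, in the IR library. All 77 genes had status OK. Samples were grouped by their titles or descriptions, and 0 per-sample columns were left unused.

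Here log2(FPKM + 1) was compared in 3 pairs over the 10792 genes that reached an FPKM of 1 in any library, and a gene was called at 2-fold. No test or batch check was possible. The members and lists were chosen with earlier results of these data known. Named genes were those the symbol rule spells out, X-linked members, paralogs, the 5 largest changes per direction and comparison, members past 2-fold, the 5 highest, and those low or at 0, and Rps6, Rps20, Rpl11, Rps15 and the genes of other lists were named after their values were seen. Alternatives were other pseudocounts (0.1, 0.01, none), filters, folds (1.5 and 4), scalings and gene exclusions. Transcript lengths came from the GENCODE annotation of NCBIM37, joined by symbol only (10093 genes, 93.5%). Start sites came from RefSeq on GRCm38.p6, the assembly of mm10. Calculations were made with scipy 1.17.1, pandas 2.3.3 and numpy 2.4.6 under Python 3.11.15, drawn with matplotlib 3.10.9, and tested on simulated data.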

Additional observations from a re-analysis of the deposited data

How the results depend on the processing

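The count of ribosomal protein genes past 2-fold was 1 from sham to WI, 1 from WI to IR and 2 from sham to IR. At 1.5-fold it was 2, 25 and 35, and at 4-fold it was 0 from WI to IR and 1 from sham to IR. The count at 1.5-fold from WI to IR was 1 in TPM and 15 after median-ratio scaling, and from sham to IR it was 2 and 18. The count past 2-fold was 0 in each comparison without the members whose lower bound is 0. It was also 0 in each with the member and the record at the same locus summed. Both alternatives were chosen after seeing the data. In TPM the median change of the members went to -0.0135 from WI to IR and -0.0113 from sham to IR, with all genes moved alike. Summing the records turned Rps27 from sham to WI to -0.13. The members' share of summed FPKM was 6.23% (sham), 6.20% (WI) and 7.16% (IR) without the 10 highest genes of any library, and 5.33%, 5.31% and 5.92% without Mup genes. Of all comparisons of a main result with an alternative, 162 stayed the same, 17 moved and 2 reversed. For single genes 278 stayed the same, 63 moved and 1 reversed. Same meant a value within 0.1 of the main one, or a count within 1.5-fold of it. A median near 0 could thus change sign and stay the same. Some alternatives could hardly move a result, such as a common scaling for the subunit difference, so the tally is no measure of robustness. The pseudocounts of 0.1 and 0.01, and no pseudocount, left the medians of the members the same. No paired analysis was possible because each group has 1 library and the labels give no replicate numbers, and leaving out a replicate was not possible for the same reason. Without counts, the precision of low values cannot be given beyond the authors' bounds.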

Other observations

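Records whose names resemble those of the ribosomal protein genes but fall outside the symbol rule differed in level. Of the pseudogene records, Rpl34-ps1, which shares its locus with Rpl34, measured 422.2 FPKM in the sham, 369.3 in the WI and 509.2 in the IR library, whereas Rps19-ps3 measured 1.03, 0.71 and 0.70. Rps4y2, a record on chromosome 6 named after the small subunit protein S4, measured 10.7, 12.1 and 23.4 FPKM, a change of 0.90 from WI to IR.

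The kinases named after ribosomal protein S6 were low and did not share a direction. Rps6kb1, the S6 kinase that phosphorylates Rps6 downstream of mTOR, measured 5.32 FPKM in the sham, 4.93 in the WI and 4.04 in the IR library, and its relative Rps6kb2 4.54, 5.20 and 5.58. Rps6ka1, a kinase downstream of ERK, measured 3.49, 3.45 and 1.89, a change of -0.62 from WI to IR, and the X-linked Rps6ka3 measured 2.22, 2.14 and 4.05, a change of 0.68. Each has 1 library per group, and none of these differences was tested.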
